A study of Homo sapiens with 10 samples.

Results

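Tight junction genes and the epithelial adhesion gene EPCAM were examined on 10 Affymetrix HG-U133 Plus 2.0 arrays of RWPE-1 cells, an immortalised human prostate epithelial line that does not form tumours. The 9 genes were CLDN1, CLDN3, CLDN4, CLDN7, OCLN, TJP1, F11R, MARVELD2 and EPCAM. A gene was read from all probe sets annotated to it and to no other gene. This gave 16 probe sets, of 54675 in the table, for 8 of the 9 genes, of 19775 genes named in all, and F11R, which encodes a junctional adhesion molecule, was not analysed here. The cells had been infected with MSCV retroviruses and selected as stable clones, and all of them carried the biotin ligase BirA. One group carried BirA and ETV1 (ETV1 cells, 4 arrays), one was labelled as carrying BirA and ERG (3 arrays), and the control group carried BirA alone (3 arrays). ETV1 and ERG are ETS transcription factors that gene fusions activate in prostate cancer. The labels give no number of separately derived clones, so each p-value measures only how much these arrays vary, which may be technical, and the number of arrays limits the precision. The comparisons address how barrier and adhesion genes differ when each factor is overexpressed.

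Tight junctions seal the space between neighbouring epithelial cells. Claudins form the paracellular strands, and each claudin sets part of their tightness and ion selectivity. Occludin and tricellulin, the products of OCLN and MARVELD2, share the MARVEL membrane fold, with tricellulin concentrated where cell corners meet. ZO-1, the product of TJP1, is the cytoplasmic scaffold that ties the strands to actin. EPCAM is a surface glycoprotein of most simple epithelia that binds claudin-7 and can protect claudins from degradation. Prostate basal and luminal epithelium both carry such junction components.

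The 3 arrays labelled ERG were unlike the rest. The median of all their intensities was 48.5 to 52.6, against 70.9 to 75.5 on the ETV1 arrays and 71.4 to 73.4 on the control arrays. Spearman correlations with control arrays were 0.766 to 0.811 for the arrays labelled ERG and 0.956 to 0.969 for the ETV1 arrays. ACTB, a control for RNA integrity, had a 3 prime over 5 prime ratio of 2.75 to 3.07 on the arrays labelled ERG, 1.24 to 1.30 on the ETV1 arrays and 1.35 to 1.40 on the control arrays. The same ratio for GAPDH was 0.946 to 1.04, 0.994 to 1.05 and 0.893 to 0.931 in that order of groups. In a fit of every probe set, 3 of 5 ETV1 probe sets rose in ETV1 cells, by 2.67 to 3.67 on the log2 scale, while of 4 ERG probe sets 1 rose (1.05) and 1 fell (-2.99) on the arrays labelled ERG, so that label was not settled by its own gene. The basal keratins KRT5 and KRT14 were bright in every group, with KRT5 at 5876 ± 426 in ETV1 cells (SD, n = 4), 11269 ± 156 on the arrays labelled ERG (n = 3) and 5212 ± 194 in control cells (n = 3). All 4 epithelial markers, CDH1 among them, lay above the array median on every array, with sums of 9810 to 12277, 15348 to 16318 and 11678 to 14498 in the same groups. TP63 and KRT17 were not analysed here. Of 5 endothelial, 6 fibroblast, 3 leukocyte and 4 neuroendocrine markers, at most 2 of any list lay above the array median on every array of a group. The summed endothelial markers, mostly from 1 bright PECAM1 probe set, were 1348 to 1524 in ETV1 cells, 197 to 227 on the arrays labelled ERG and 1482 to 1660 in control cells, while CDH5 was at most 17.5 on any array. The 4 luminal markers summed to 721 to 803, 205 to 238 and 788 to 991 in the same groups, the fibroblast markers to 1123 to 1176, 246 to 329 and 974 to 1247, the leukocyte markers to 213 to 234, 58.3 to 106 and 202 to 280, and the neuroendocrine markers to 436 to 537, 114 to 135 and 385 to 460. The part of these differences in the values below was not tested.

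In ETV1 cells, the called probe sets of barrier genes rose and EPCAM fell, while the brightest probe sets of OCLN and MARVELD2 were not called. CLDN1, CLDN7, OCLN and TJP1 rose by 0.48 to 1.16 on the log2 scale in their called probe sets, MARVELD2 rose in 1 of its probe sets, and EPCAM fell by 0.89. CLDN4 differed by -0.35 without passing, and CLDN3 was dim in every group. A probe set was tested on log2(intensity + 16) if it exceeded the array median on 3 or more arrays, as 13 of the 16 did. By limma, with a Benjamini-Hochberg adjusted p under 0.05, 10 of these 13 were called, beside 20.5% of all 31835 tested probe sets. Of them 9 rose and 1 fell, beside 9.2% and 11.3% of all tested. The ETV1 and control arrays did not overlap in 10 of the 13, beside 32.8% of all tested. The median log2 fold change was 0.60 over the 13 probe sets and -0.03 over all tested. The counts were the same 9 and 1 when the arrays labelled ERG were left out of the fit, but the filter was still set on all 10 arrays. The filter bears on 2 called probe sets: 218182_s_at of CLDN1 lay above the median on the ETV1 arrays only, and 235937_at of OCLN on the arrays labelled ERG and 1 ETV1 array. With no filter, 6 of the 16 member probe sets rose and 1 fell, both of these among the 6. The shares of all tested probe sets above belong to the filtered fit. With no filter, a smaller share of all probe sets was called in each direction. In these bulk samples, fewer cells with a transcript and less of it per cell cannot be told apart.

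**Figure D1:**
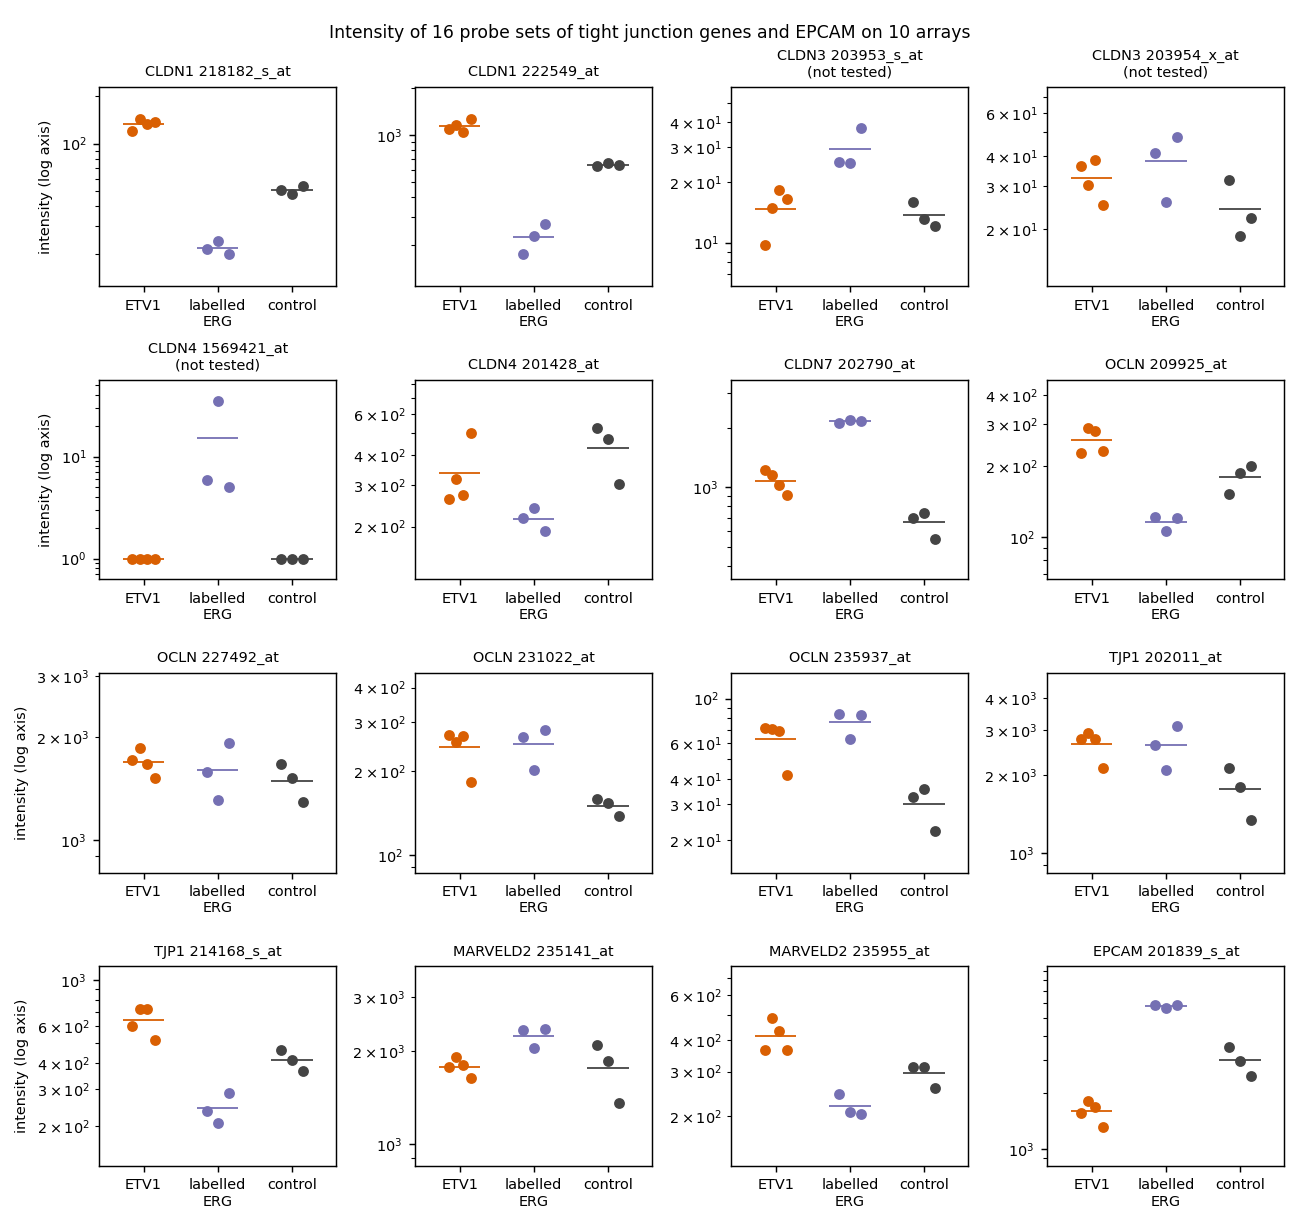
Intensity (log axis) of each of the 16 probe sets on every array, grouped as ETV1 (4 arrays), labelled ERG (3) and control (3), with the group mean as a line. EPCAM sits lowest in ETV1 cells and highest on the arrays labelled ERG, and CLDN1 the other way round.

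CLDN1, a claudin that tightens the barrier in stratified and glandular epithelium, rose in ETV1 cells in both of its probe sets. Probe set 222549_at read 1098, 1152, 1046 and 1268 in ETV1 cells, 174, 226 and 271 on the arrays labelled ERG, and 631, 661 and 645 in control cells. The 3 groups did not overlap, with ETV1 cells highest and the arrays labelled ERG lowest. The log2 fold change was 0.80 (SE 0.15, limma adjusted p = 0.0013) for ETV1 against control and -1.49 (SE 0.16, limma adjusted p = 6e-07) for the arrays labelled ERG against control. Probe set 218182_s_at read 120, 143, 133.41 and 137 in ETV1 cells, 21.5, 24.3 and 20.0 on the arrays labelled ERG, and 51.0, 47.7 and 54.0 in control cells. It gave the same order of groups. Since it passed the filter only through the ETV1 arrays, its changes of 1.16 and -0.82 were taken from the fit of every probe set, with no filter (limma adjusted p = 1.1e-04 for each). Set directly against ETV1 cells, the arrays labelled ERG differed by -2.29 and -1.98 on the log2 scale in these probe sets.

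CLDN7, a claudin of lateral membranes that binds EPCAM, was higher than control in both other groups. Its probe set 202790_at read 1221, 1156, 1028 and 917 in ETV1 cells, 2117, 2186 and 2176 on the arrays labelled ERG, and 700, 745 and 547 in control cells. All 3 groups were separate, and every ETV1 array and every array labelled ERG lay above every control array. The change was 0.69 (SE 0.14, limma adjusted p = 0.0034) for ETV1 and 1.69 (SE 0.15, limma adjusted p = 1.3e-07) for the arrays labelled ERG. Both claudins rose in ETV1 cells, whereas CLDN7 rose and CLDN1 fell on the arrays labelled ERG.

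The start regions of CLDN1 and CLDN7 are shown because these genes shared a direction in ETV1 cells and had opposite directions on the arrays labelled ERG. The windows, from RefSeq (GRCh38.p14), run from 250 bases before to 50 bases after the annotated start. CLDN1 lies at chr3:190322397-190322696 and CLDN7, at the one of its 2 windows that holds matches, at chr17:7262429-7262728, both on the minus strand and both written 5′ to 3′ along the gene. Capitals mark matches to an ETS core (CCGGAA, or TTCCGG on the other strand) and to an E-box that SNAI and ZEB repressors can bind (CACCTG, or CAGGTG on the other strand).
CLDN1: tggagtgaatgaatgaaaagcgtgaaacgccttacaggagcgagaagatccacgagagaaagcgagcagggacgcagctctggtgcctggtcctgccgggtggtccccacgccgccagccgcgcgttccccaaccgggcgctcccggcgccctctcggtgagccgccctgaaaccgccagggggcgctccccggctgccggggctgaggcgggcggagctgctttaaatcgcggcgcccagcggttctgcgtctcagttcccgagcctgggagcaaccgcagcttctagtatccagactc
CLDN7: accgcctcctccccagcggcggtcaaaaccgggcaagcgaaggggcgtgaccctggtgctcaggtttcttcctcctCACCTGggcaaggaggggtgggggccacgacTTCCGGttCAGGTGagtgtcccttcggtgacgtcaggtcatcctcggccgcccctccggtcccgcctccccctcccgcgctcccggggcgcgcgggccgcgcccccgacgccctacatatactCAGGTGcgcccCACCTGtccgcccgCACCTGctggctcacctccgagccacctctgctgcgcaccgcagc
The CLDN7 window held 1 ETS core and 5 E-boxes, none overlapping another, and the CLDN1 window held neither. At least 5 such E-boxes were found in 0.0916% of 34943 RefSeq start windows of the same length, at least 1 in 20.6%, and an ETS core in 17.2%. The cut-off of 5 was taken from the CLDN7 window itself, the richest in E-boxes of the 12 searched. The share at that cut-off is thus a description and not a test. Over the 12 windows of the 7 genes that matched the table, 5 held an E-box, 1 held an ETS core, and none held the grainyhead motif (AACNGGTT, either strand), which 1.73% of all windows held. EPCAM and F11R were not matched. A match is a description of the letters, not of binding.

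CLDN4, which limits sodium passage and also serves as a receptor for Clostridium enterotoxin, did not pass in ETV1 cells. Probe set 201428_at read 261, 318, 271 and 498 in ETV1 cells, 218, 239 and 191 on the arrays labelled ERG, and 522, 471 and 303 in control cells. ETV1 and control arrays overlapped, since ETV1 replicate D was above 2 of the 3 control arrays, whereas all arrays labelled ERG lay below all control arrays. The log2 fold change was -0.35 (SE 0.22, limma adjusted p = 0.28) for ETV1 and -0.92 (SE 0.23, limma adjusted p = 0.0021) for the arrays labelled ERG. The ETV1 value ranged from -0.58 without control replicate C to -0.20 without control replicate A and passed in neither. The other CLDN4 probe set, 1569421_at, was listed at 1, the value at which low readings pile up, on every ETV1 and control array and at 5.0 to 35.1 on the arrays labelled ERG. It was not tested.

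CLDN3, the neighbour of CLDN4 on chromosome 7 with no protein-coding gene between them in RefSeq, lay below the median of every array in both of its probe sets and was not tested. Probe set 203953_s_at read 9.7 to 18.2 in ETV1 cells, 24.96 to 37.4 on the arrays labelled ERG and 12.1 to 15.98 in control cells. Probe set 203954_x_at read 25.1 to 38.6, 25.9 to 47.9 and 18.7 to 31.8 in the same groups. Only the first of them separated the arrays labelled ERG from control.

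OCLN, which encodes occludin, rose in ETV1 cells in 3 of its 4 probe sets. Probe set 231022_at read 271, 254, 267 and 183 in ETV1 cells, 267, 202 and 282 on the arrays labelled ERG, and 159, 153 and 138 in control cells. The ETV1 arrays and the arrays labelled ERG lay above control without overlap, and ETV1 replicate D was the lowest ETV1 array. The changes were 0.63 (SE 0.16, limma adjusted p = 0.011) for ETV1 and 0.67 (SE 0.17, limma adjusted p = 0.0022) for the arrays labelled ERG. The dim probe set 235937_at likewise lay above control in both groups, at 41.9 to 71.6 in ETV1 cells, 63.0 to 83.6 on the arrays labelled ERG and 22.03 to 35.5 in control cells, with changes of 0.78 and 1.01 in the fit with no filter (limma adjusted p = 0.017 and 5.2e-04).

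The remaining OCLN probe sets did not follow that pattern on the arrays labelled ERG. Probe set 209925_at read 226, 289, 282 and 231 in ETV1 cells, 121, 106 and 121 on the arrays labelled ERG, and 153, 188 and 201 in control cells. It was highest in ETV1 cells and lowest on the arrays labelled ERG, with changes of 0.48 (SE 0.14, limma adjusted p = 0.026) and -0.57 (SE 0.15, limma adjusted p = 0.0031). The fall on the arrays labelled ERG did not pass after quantile normalization (-0.28, limma adjusted p = 0.105) or median centring (-0.16, limma adjusted p = 0.33). The brightest, 227492_at, read 1514 to 1851 in ETV1 cells, 1307 to 1917 on the arrays labelled ERG and 1288 to 1673 in control cells, with overlapping groups. Its changes were 0.18 (limma adjusted p = 0.46) and 0.094 (limma adjusted p = 0.61). As deposited, probe sets of OCLN thus gave rises, a fall and no call for the same arrays labelled ERG. On those arrays the ACTB ratio was 2.75 to 3.07 and the GAPDH ratio 0.946 to 1.04, and their part in this was not tested. RefSeq lists a transcribed pseudogene, OCLNP1, on chromosome 5, and whether its transcripts reach these probe sets was not tested.
The second OCLN start window, at chr5:69492540-69492839 on the plus strand (GRCh38.p14), is shown beside those of the claudins because OCLN rose with them in ETV1 cells. Capitals mark its 2 E-boxes, and it held no ETS core.
OCLN: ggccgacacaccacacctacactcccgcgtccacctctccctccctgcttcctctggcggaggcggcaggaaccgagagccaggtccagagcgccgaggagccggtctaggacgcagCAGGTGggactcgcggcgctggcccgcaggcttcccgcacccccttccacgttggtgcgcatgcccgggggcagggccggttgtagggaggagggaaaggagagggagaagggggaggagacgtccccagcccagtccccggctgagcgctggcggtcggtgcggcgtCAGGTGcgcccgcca

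MARVELD2, which lies next to OCLN on chromosome 5 in RefSeq and encodes tricellulin, had 1 called and 1 uncalled probe set in each comparison with control. Probe set 235955_at read 365, 486, 434 and 365 in ETV1 cells, 244, 209 and 205 on the arrays labelled ERG, and 314, 313 and 258 in control cells. ETV1 cells were highest and the arrays labelled ERG lowest, with no overlap. The changes were 0.46 (SE 0.14, limma adjusted p = 0.034) and -0.40 (SE 0.15, limma adjusted p = 0.026). The brighter probe set 235141_at read 1639 to 1913 in ETV1 cells, 2045 to 2360 on the arrays labelled ERG and 1361 to 2094 in control cells. Both groups overlapped control, with changes of 0.031 (limma adjusted p = 0.92) and 0.36 (limma adjusted p = 0.051).

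TJP1, which encodes the scaffold ZO-1, rose in ETV1 cells in both probe sets. Probe set 214168_s_at read 598, 721, 724 and 513 in ETV1 cells, 237, 206 and 286 on the arrays labelled ERG, and 460, 414 and 364 in control cells. The 3 groups were separate, with changes of 0.60 (SE 0.16, limma adjusted p = 0.014) for ETV1 and -0.73 (SE 0.17, limma adjusted p = 0.001) for the arrays labelled ERG. After median centring that fall was -0.33 and did not pass (limma adjusted p = 0.076). Probe set 202011_at read 2760, 2916, 2777 and 2144 in ETV1 cells, 2621, 2103 and 3114 on the arrays labelled ERG, and 2140, 1808 and 1345 in control cells. The lowest ETV1 array, replicate D, was barely above the highest control array, and the change was 0.60 (SE 0.18, limma adjusted p = 0.029). Its change on the arrays labelled ERG was 0.57 as deposited (SE 0.19, limma adjusted p = 0.014), opposite to the other probe set of the same gene.

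EPCAM fell in ETV1 cells and rose on the arrays labelled ERG. Its single probe set, 201839_s_at, read 1560, 1819, 1682 and 1307 in ETV1 cells, 5877, 5649 and 5920 on the arrays labelled ERG, and 3520, 2972 and 2450 in control cells. The groups did not overlap, every ETV1 array being below every control array and every array labelled ERG above. The mean in ETV1 cells was 0.534 of the control mean, with a log2 fold change of -0.89 (SE 0.15, limma adjusted p = 7.7e-04). For the arrays labelled ERG the mean was 1.95 times control, with a change of 0.98 (SE 0.16, limma adjusted p = 5.8e-05). Directly compared, the arrays labelled ERG were above ETV1 cells by 1.87 (SE 0.15, limma adjusted p = 2.7e-08).

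**Figure D2:**
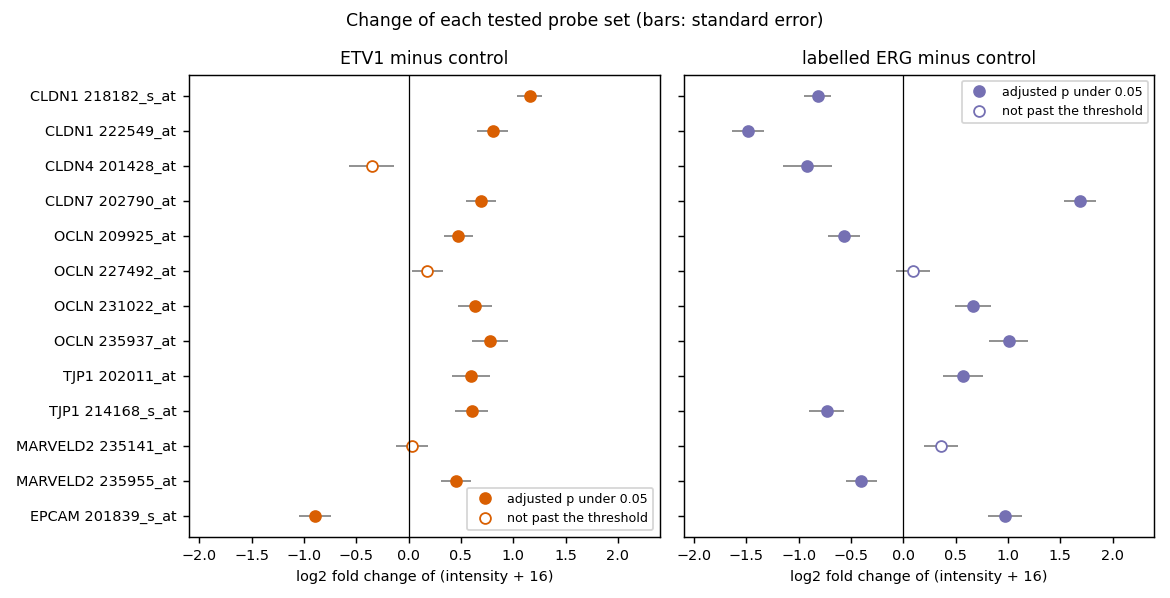
Log2 fold change of (intensity + 16) for each of the 13 tested probe sets, ETV1 minus control on the left and labelled ERG minus control on the right, with standard errors as bars and filled points for an adjusted p under 0.05. In ETV1 cells 9 filled points lie above 0 and 1, EPCAM, below, whereas on the arrays labelled ERG 5 lie above and 6 below.

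EPCAM and CLDN7, whose products bind each other, were also compared within each array, which removes any scaling common to both. This pair and the pair of CLDN1 with CLDN7 were chosen after their values were seen. The log2 difference of EPCAM over CLDN7 was 0.35, 0.65, 0.70 and 0.50 in ETV1 cells, 1.47, 1.36 and 1.44 on the arrays labelled ERG, and 2.30, 1.97 and 2.13 in control cells. It was lowest in ETV1 cells and highest in control cells, with no overlap. The mean was 0.55 ± 0.16 in ETV1 cells (SD, n = 4) and 2.14 ± 0.16 in control cells (n = 3), a difference of -1.59 (exact two-sided permutation p = 0.029, the smallest that 4 against 3 arrays allow, adjusted p = 0.057 over the 6 comparisons of the 2 pairs). EPCAM lay below and CLDN7 above control on every ETV1 array, so this separation followed from values already seen. That p-value therefore adds no support. On the arrays labelled ERG the difference from control was -0.71 (exact two-sided permutation p = 0.1, the smallest that 3 against 3 arrays allow, adjusted p = 0.12), where CLDN7 and EPCAM lay 1.69 and 0.98 above control in the fit. The log2 difference of CLDN1 over CLDN7 was 0.083 ± 0.26 in ETV1 cells (n = 4), -3.20 ± 0.28 on the arrays labelled ERG (n = 3) and -0.028 ± 0.22 in control cells (n = 3). ETV1 and control arrays overlapped in it (exact two-sided permutation p = 0.66, adjusted p = 0.66), and the arrays labelled ERG lay below all others.

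**Figure D3:**
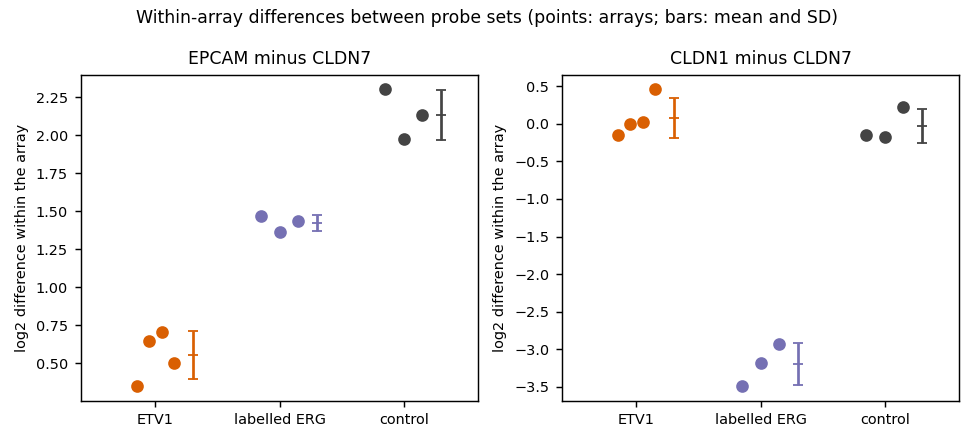
Log2 difference between the brightest probe sets of EPCAM and CLDN7 (left) and of CLDN1 and CLDN7 (right) within each array, with arrays as points and the mean and SD as bars. EPCAM over CLDN7 is lowest in the ETV1 arrays, at 0.35 to 0.70, and CLDN1 over CLDN7 is far lower on the arrays labelled ERG, at -3.49 to -2.93.

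On the arrays labelled ERG the members split. Of the 13 tested probe sets 5 rose and 6 fell against control, beside 40.6% and 37.6% of all tested probe sets, so that their 11 calls were near the background of 78.2%. Against ETV1 cells 8 were called, 2 higher and 6 lower, beside 81.8% called, 43% higher and 38.8% lower among all tested. Arrays did not overlap in 10 of the 13 against control and in 9 against ETV1 cells, beside 76.7% and 79.7% of all tested. Both comparisons with control use the same control arrays, so their values are given side by side and not as independent. Scaling moved these results. The median log2 fold change of all tested probe sets for the arrays labelled ERG against control was 0.085 as deposited, -0.0015 after quantile normalization and 0.49 after median centring. For ETV1 against control these medians were -0.031, -0.020 and -0.052.

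Under all 3 scalings, CLDN7, EPCAM and 2 OCLN probe sets were called higher on the arrays labelled ERG, and both CLDN1 probe sets and the tested CLDN4 probe set were called lower. The dimmer of these 2 OCLN probe sets passed the filter mainly through the arrays labelled ERG, where it is high. The dimmer CLDN1 probe set passed it only through the ETV1 arrays. All 3 scalings were fitted with that filter, so the calls of these dimmer probe sets are descriptions here. EPCAM changed by 0.98 as deposited, 0.35 after quantile normalization and 1.38 after median centring, and CLDN7 by 1.69, 1.16 and 2.10. CLDN1 probe set 222549_at changed by -1.49, -1.52 and -1.08, and CLDN4 by -0.92, -0.88 and -0.51. The brighter TJP1 probe set changed by 0.57, -0.036 and 0.98, so its direction depended on the scaling, as did those of OCLN probe set 227492_at and of MARVELD2. In ETV1 cells the same 9 probe sets were called higher and EPCAM lower under all 3 scalings. These 9 include the same dimmer OCLN and CLDN1 probe sets, with the same limit.

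**Figure D4:**
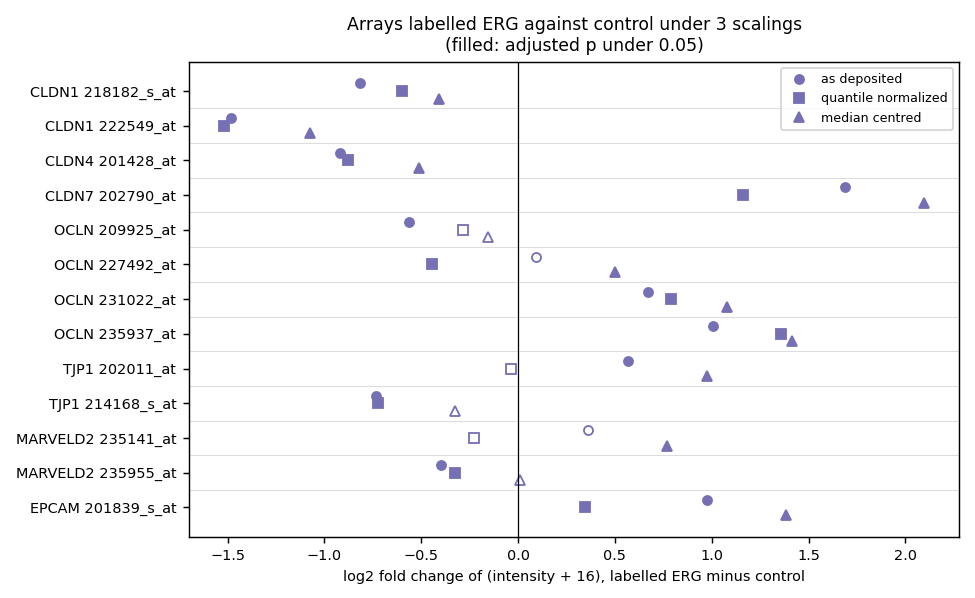
Log2 fold change of labelled ERG minus control for the 13 tested probe sets as deposited (circles), quantile normalized (squares) and median centred (triangles), filled where the adjusted p was under 0.05. CLDN7 and EPCAM stay right of 0 and CLDN1 and CLDN4 left of it, while OCLN 227492_at, TJP1 202011_at and MARVELD2 probe sets lie on both sides.

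Some calls in ETV1 cells were lost when a single array was left out. Leaving out each array in turn left 7 to 10 of the 13 probe sets called, and those of CLDN1, CLDN7 and EPCAM, OCLN 231022_at and 235937_at and TJP1 214168_s_at passed each time. These fits kept the filter, which bears on the dimmer CLDN1 probe set and on OCLN 235937_at. EPCAM changed by -1.03 to -0.77 over these fits and CLDN7 by 0.56 to 0.78. TJP1 202011_at did not pass without control replicate B or C or ETV1 replicate A, B or C (lowest change 0.42, without control replicate C). OCLN 209925_at did not pass without control replicate A or B or ETV1 replicate B or C (lowest 0.37), and MARVELD2 235955_at without any one of the control replicates or ETV1 replicate B or C (lowest 0.37). These 3 were also lost when every probe set was tested, with limma adjusted p of 0.069, 0.058 and 0.072. For the arrays labelled ERG against control, MARVELD2 235955_at did not pass without control replicate A or B or replicate B or C labelled ERG (smallest change -0.36), nor TJP1 202011_at without control replicate C or replicate C labelled ERG (lowest 0.39).

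Other tight junction genes were read from the brightest probe set of each. On that reading 3 of 7 tested members rose in ETV1 cells and 1 fell. Of 34 tested genes on the lists of other claudins, other membrane proteins and plaque or polarity proteins, 1 was called higher and 2 lower, beside 8.47% and 14% of all 14045 genes, and the difference between these lists and the members was not tested. None of 8 other claudins passed, with CLDN12, a claudin of calcium-permeable junctions, at 1057 ± 168 in ETV1 cells (n = 4) and 851 ± 203 in control cells (n = 3), a log2 difference of 0.32 (limma adjusted p = 0.22). None of 8 other membrane proteins passed, and CXADR, the coxsackievirus and adenovirus receptor, differed by -0.48 (limma adjusted p = 0.051). After quantile normalization 1 claudin was higher and 1 lower, and 1 of the membrane proteins was lower. For ETV1 against control, that scaling called more of all tested probe sets in each direction than the deposited one. The shares of all genes given beside these and the following lists are as deposited.

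Among 18 plaque and polarity genes, CGNL1, which encodes the cingulin relative paracingulin, rose to 88.8 ± 5.10 in ETV1 cells (n = 4), against 46.7 ± 5.35 in control cells (n = 3), a log2 fold change of 0.74. It passed the filter only through the ETV1 arrays, where it is high, so this change is a description. PARD6B, an adaptor of the apical polarity complex, fell to 216 ± 6.44, against 374 ± 63.7 in control cells, a change of -0.74 (SE 0.14, limma adjusted p = 0.0017). MPDZ, a multi-PDZ scaffold, changed by -0.60 (limma adjusted p = 0.023) and did not pass without control replicate A or B or ETV1 replicate C. The median log2 fold changes of the other claudins, the membrane proteins and these scaffold genes were -0.17, -0.14 and -0.16, beside -0.057 over all genes. After quantile normalization 2 scaffold genes were higher and 4 lower.

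Of 5 tested genes that act with EPCAM or control its shedding, 2 fell in ETV1 cells and none rose, beside 14% and 8.47% of all genes. The list median was -0.17, and after quantile normalization 1 fell and 1 rose. ST14, which encodes matriptase, a protease that cleaves EPCAM and claudin-7, fell to 408 ± 37.7 in ETV1 cells (n = 4), against 703 ± 168 in control cells (n = 3), a change of -0.74 (SE 0.17, limma adjusted p = 0.0065). CD9, a tetraspanin found in complexes with EPCAM, changed by -0.58 (limma adjusted p = 0.020) and did not pass without control replicate A or B, without ETV1 replicate A or C, or after quantile normalization (-0.39). The matriptase inhibitors SPINT1 and SPINT2 differed by 0.30 and 0.03 (limma adjusted p = 0.17 and 0.90). On the arrays labelled ERG, ST14 rose by 0.79 and CD9 by 1.05, also under the other scalings, the sheddase ADAM17 fell by 1.52, and SPINT1 fell by 0.62, or by 0.21 without passing after median centring.

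Transcription factors and splicing regulators that activate epithelial junction genes were split in ETV1 cells, with 4 of 10 lower and 1 higher, beside 14% and 8.47% of all genes, and a list median of -0.24. After quantile normalization 3 were lower and 2 higher, and after median centring 5 and 1. The grainyhead factor GRHL1 fell to 263 ± 21.8 in ETV1 cells (n = 4), against 520 ± 106 in control cells (n = 3), a change of -0.93 (SE 0.16, limma adjusted p = 9e-04). The ETS factor ELF3 changed by -0.87 and GRHL2 by -0.73, and GRHL2 did not pass without control replicate A. GRHL3, which acts in epidermal barrier formation, went the other way, at 265 ± 36.3 in ETV1 cells and 117 ± 19.4 in control cells (1.08, SE 0.15, limma adjusted p = 2.1e-04). Of these 10 genes, 6 rose on the arrays labelled ERG and 1 fell as deposited, beside 47.2% and 32% of all genes. In the other scalings 3 rose and 2 fell after quantile normalization, and 7 rose and none fell after median centring. The shares of all genes are as deposited. Median centring called more of all tested probe sets higher and fewer lower on the arrays labelled ERG, with a median change of 0.49. How much of the list counts follows that shift was not tested. EHF, an epithelial ETS factor, rose on the arrays labelled ERG by 2.28 and GRHL3 by 0.91, under all 3 scalings.

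Of 6 listed repressors of epithelial junction genes, SNAI1, ZEB1 and ZEB2 were too dim to be tested, and 2 of the other 3 rose in ETV1 cells, beside 8.47% of all genes, with a median of 0.66. After quantile normalization 3 of 3 rose, but that scaling also called more of all tested probe sets higher in ETV1 cells than the deposited one. TWIST1 rose to 346 ± 16.01 in ETV1 cells (n = 4), against 215 ± 42.3 in control cells (n = 3), a change of 0.66 (SE 0.15, limma adjusted p = 0.0056). TWIST2 rose by 0.75 (SE 0.17, limma adjusted p = 0.0066), and SNAI2 differed by 0.44 (limma adjusted p = 0.081). TWIST1 rose on the arrays labelled ERG by 1.30 under the deposited scaling and by 1.18 and 1.71 under the others, while SNAI2 changed by 0.49 as deposited and by -0.097 after quantile normalization.

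**Figure D5:**
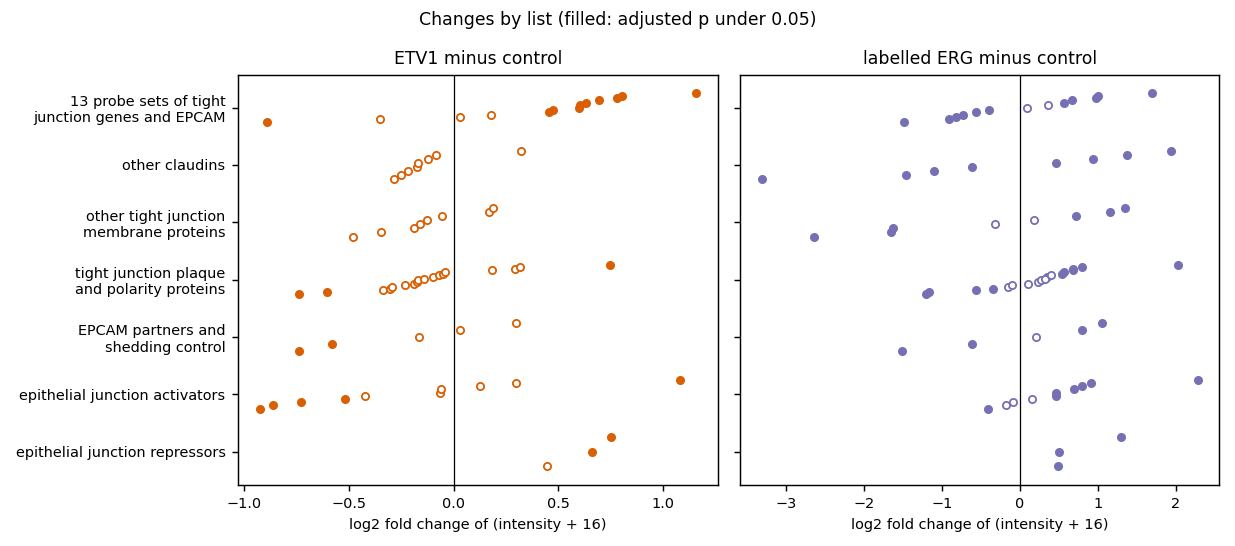
Log2 fold change of (intensity + 16) for the 13 member probe sets and for each tested gene of 6 related lists, ETV1 minus control on the left and labelled ERG minus control on the right, filled where the adjusted p was under 0.05. In ETV1 cells the 9 member probe sets filled right of 0, from 5 genes, lie at 0.46 to 1.16. Of the other junction genes, each read from 1 probe set, 1 is filled right of 0 and 2 left of it. These units differ, and on 1 probe set per gene 3 of 7 tested members rose.

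On the arrays labelled ERG, other claudins split as the members did, with 4 of 8 higher and 4 lower, beside 47.2% and 32% of all genes, and a median of -0.075, beside 0.29 over all genes. Under either other scaling 4 were higher and 3 lower. CLDN2, which forms cation pores in leaky epithelia, was at 12.5 ± 2.81 on the arrays labelled ERG (n = 3) and 268 ± 18.7 in control cells (n = 3), a change of -3.32. It passed the filter only through the ETV1 and control arrays, where it is high, so this change is a description. CLDN23 rose by 1.38 and CLDN12 by 0.94, and CLDN19 and CLDN11 fell by 1.46 and 1.10, all in the same direction under the other scalings. CLDN16 rose by 1.93, but it passed the filter only through the arrays labelled ERG and was no longer tested without any one of them. Among membrane proteins MARVELD3, a further MARVEL protein of the junction, rose by 1.35. The junctional adhesion molecules JAM2 and JAM3 fell by 1.66 and 1.64. IGSF5, a related immunoglobulin-type protein, fell by 2.65. JAM2, JAM3 and IGSF5 passed the filter only through the ETV1 and control arrays, so their changes are descriptions. The counts in this paragraph include them and CLDN2. They also include CLDN16 and AMOT, which passed the filter only through the arrays labelled ERG, where they are high. Of the 8 membrane proteins 3 rose and 3 fell as deposited, 2 and 4 after quantile normalization and 4 and 3 after median centring. Of the 18 scaffold genes 7 rose and 4 fell, 7 and 6, and 12 and 2, in the same order. The shares of all genes are as deposited, and after median centring the median change of all tested probe sets was 0.49. Of the 34 other junction genes together, 14 rose and 11 fell, and JAM2, JAM3, IGSF5 and MARVELD3 had the same direction and call under the other scalings. AMOT, the angiomotin scaffold, passed the filter only through the arrays labelled ERG, on which it averaged 77.1 ± 4.49 (n = 3), against 7.29 ± 5.69 in control cells (n = 3).

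In the direct comparison of the arrays labelled ERG with ETV1 cells, 19 of 34 other tight junction genes were higher and 12 lower, beside 50.1% and 33% of all genes. These counts include CLDN16, AMOT, CGNL1, CLDN2, JAM2, JAM3 and IGSF5, which passed the filter only through groups where they are high. The counts are therefore descriptions. PARD6B averaged 658 ± 77.4 on the arrays labelled ERG (SD, n = 3) and 216 ± 6.44 in ETV1 cells (n = 4), a log2 fold change of 1.53 (SE 0.14, limma adjusted p = 8.6e-08). CXADR was higher by 1.64 and ST14 by 1.53, each in the same direction after quantile normalization and median centring. EHF was higher by 2.16 and GRHL1 by 1.62, also under both scalings.

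The genes whose profile over the 10 arrays was nearest to EPCAM were TIMM17A, EXOSC1, CTBP2, TUBG1 and SEPHS1. Nearness was the root mean square difference of log2 values, with each probe set centred on its own mean over the 10 arrays. The arrays themselves were not centred, so shifts of whole arrays remained in it. These 5 genes lay at 0.074 to 0.10, against a median of 0.621 over 14109 genes. TIMM17A, a subunit of the mitochondrial import channel, averaged 1473 ± 221 in ETV1 cells (SD, n = 4), 5025 ± 231 on the arrays labelled ERG (n = 3) and 2761 ± 380 in control cells (n = 3). Its changes of -0.90 and 0.87 stood beside those of -0.89 and 0.98 for EPCAM. The tested probe sets of the other members lay at 0.653 to 1.74 from EPCAM, all farther than that median, the nearest being MARVELD2 235141_at, then CLDN7.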

How the data were processed

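Intensity values were deposited by the authors as one linear value per probe set and array. The labels give Trizol total RNA and standard Affymetrix biotinylated cRNA, and the sources used here do not state how probes were summarised or arrays scaled. Values pile up at 1. They were used as deposited.

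Of 54675 probe sets, 41091 name 1 gene, 1801 several and 11721 none, and 62 are controls, by GEO's platform annotation with symbols checked through RefSeq. All probe sets above their array's median on at least 3 arrays (31835) were fitted on log2(intensity + 16) with limma (lmFit, eBayes), one coefficient per group leaving 7 residual degrees of freedom; two-sided p-values were adjusted over all of these by Benjamini-Hochberg at a threshold of 0.05. Called or "passed" means past that threshold. Listed genes were read from their brightest probe set.

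The members, lists and tests were chosen with earlier results of these data known. The naming rule took every member, up to 3 called genes each way per list and comparison, markers, ERG, ETV1 and the 5 genes nearest to EPCAM. Alternatives are given in the closing section. The fit was tested on simulated data. The software was R 4.3.3, limma 3.58.1, the data.table package, version 1.17.8, Python 3.11.15, pandas 2.3.3 and matplotlib 3.10.9.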

Additional observations from a re-analysis of the deposited data

Results flagged for a closer look

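Among the 4 ETV1 arrays, replicate D stood apart from the others in 3 of 45 named probe sets, by Dixon's test at its 95% critical value, which chance alone exceeds in about 5% of groups. OCLN 231022_at read 183.27 on it and 254 to 271 on the other ETV1 arrays, beside 138 to 159 in control cells. OCLN 235937_at read 41.87, against 69.2 to 71.6 on the other ETV1 arrays and 22.03 to 35.5 in control cells. GRHL3 read 211.38, against 279 to 291 on the other ETV1 arrays and 96.3 to 135 in control cells. In each of them replicate D still lay above every control array.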

How the results depend on the processing

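Counts below are for ETV1 against control, the arrays labelled ERG against control, and the arrays labelled ERG against ETV1 cells, in that order; as deposited they were 10, 11 and 8 member probe sets and 6527, 24897 and 26046 of all tested. The brightest probe set per gene gave 4, 6 and 5 of 7 members and 3551, 11223 and 11746 genes. Averaging the probe sets of a gene gave 5, 3 and 4 members and 3161, 9298 and 9838 genes. Leaving out probe sets whose suffix marks cross-matching, 5 members were called when arrays labelled ERG were set against ETV1 cells, and 3445, 15499 and 16139 of all. The 75th percentile filter called 12762 and 13510 in the 2 comparisons of the arrays labelled ERG. Fewer features were tested in these settings. At a threshold of 0.01, 5 members and 3552 of all were called for ETV1, and array weights, whose estimation stopped before convergence, called 21518. Leaving out each array gave 4242 (without control replicate B) to 7948 for ETV1.

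Directions turned for some values. For the arrays labelled ERG against control, quantile normalization gave TJP1 202011_at -0.036, OCLN 227492_at -0.45 and MARVELD2 235141_at -0.23, median centring gave MARVELD2 235955_at 0.0074, and the mean of probe sets gave MARVELD2 -0.019 and TJP1 -0.082. Against ETV1 cells, quantile normalization gave MARVELD2 235141_at -0.42, median centring gave TJP1 202011_at 0.40 and OCLN 227492_at 0.34, the mean of probe sets gave CLDN4 0.094 and MARVELD2 -0.26, and the replicate block gave OCLN 231022_at -0.088. For ETV1 against control, array weights gave MARVELD2 235141_at -0.040. With each array left out, MARVELD2 235141_at ranged from -0.15 to 0.16 for ETV1 and OCLN 227492_at from -0.042 to 0.23 for the arrays labelled ERG against control. Against ETV1 cells TJP1 202011_at ranged from -0.16 to 0.12, OCLN 231022_at from -0.088 to 0.17 and OCLN 227492_at from -0.22 to 0.052. The cause was not tested. Of these, TJP1 202011_at and MARVELD2 235955_at against control and CLDN4 against ETV1 cells were called as deposited.

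Arrays with the same letter did not pair: their deviations correlated at -0.096 to 0.084, and 0 of 9 arrays were closest to their own letter in both other groups. The replicate block gave 10, 11 and 7 called members. With it CLDN4 passed in ETV1 cells (-0.55), as it did with array weights (-0.66), MARVELD2 235955_at did not (0.51), and CLDN4 did not for the arrays labelled ERG against ETV1 cells (-0.37), as was also so under both other scalings (-0.52 and -0.13) and without ETV1 replicate D or without replicate A or C labelled ERG.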
